A study of Mus musculus with 8 samples.

Results

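The CC chemokine genes Ccl3, Ccl4, Ccl5, Ccl6, Ccl9, Ccl17 and Ccl22 were followed through RNA-seq of BMDMs (bone marrow-derived macrophages, obtained by growing bone marrow cells in culture). They were chosen by symbol, as the CC chemokines of macrophages other than those that act mainly on Ccr2, and make up 7 of the 21080 gene symbols measured. There were 8 samples in 4 groups of 2. WT and Nudt21-cKO BMDMs were sequenced without stimulation (0 h), and after stimulation, for which they were primed overnight with 50 ng/ml IFNγ and then given 50 ng/ml LPS for 4 h. The cKO mice were Nudt21 fl/fl LysM Cre, in which Cre driven by LysM, a myeloid gene, removes exons 2 to 3 of Nudt21. The WT mice were sex-matched littermates that also carried LysM Cre, so Cre was present in all groups. All mice were of the C57BL/6 background, their age is not given in the sources used here, and each sample pooled the cells of 2 mice grown for 5 to 6 days with M-CSF at 100 ng/ml. The sample labels name the stimulation for the 0 h samples too, whose titles led to their being taken as untreated.

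Chemokines are small secreted proteins that guide leukocytes along gradients by binding receptors on their surface. Ccl3 (MIP-1α), Ccl4 (MIP-1β) and Ccl5 (RANTES) are inflammatory chemokines, of which Ccl3 and Ccl5 bind Ccr1; macrophages make them in large amounts when Toll-like receptors are engaged. Ccl6 and Ccl9 are myeloid chemokines of mouse that bind Ccr1 and are made by resting macrophages as well. Ccl17 and Ccl22 share the receptor Ccr4, through which they draw T cells, and are best known from dendritic cells and from macrophages exposed to IL-4.

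The values give, for each gene, the read depth averaged over its bases (coverage), so that levels of different genes can be set side by side. Summed over all genes, coverage ranged from 1.50e+07 to 1.80e+07 per sample, and at each time the 2 highest totals were those of cKO. The labels give a yield of more than 250000000 paired-end reads for each sample, but not each sample's own total. Read counts behind single values were not given either, and no counting interval was calculated. Nudt21 checked the labels: its coverage was 641 to 718 in WT and 158 to 172 in cKO at 0 h, and 547 to 575 in WT and 115 to 142 in cKO at 4 h. Macrophage markers were high in every sample, with the summed coverage of 8 markers at 120530 to 132928 at 0 h and 64069.9 to 75278 at 4 h. In cKO at 0 h, Adgre1 was 1.58-fold and Fcgr1 1.86-fold lower than in WT, and Cd68 was 1.62-fold higher. Nothing in the labels says whether the samples came from separate experiments, so the p-values measure the spread between these samples. In such bulk samples, fewer cells of a type and less RNA per cell cannot be told apart.

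The members sit in the genome as 2 groups of neighbours. On GRCm38, Ccl5 (chr11:83525778-83530518), Ccl9 (chr11:83572919-83578636), Ccl6 (chr11:83587882-83593087) and Ccl3 (chr11:83647844-83649355) lie on the minus strand, and Ccl4 (chr11:83662584-83664683) lies on the plus strand beside Ccl3. Ccl22 (chr8:94745590-94751699) and Ccl17 (chr8:94810453-94812036) lie on the plus strand. In the RefSeq annotation, the gene model of Ccl4 overlaps that of Ccl3 by 755 bases on the opposite strand, that of E230016K23Rik spans Ccl6, and that of Gm32650 overlaps Ccl5. The library kit that the methods name, NEBNext Ultra RNA, does not mark the strand in its standard form, so reads of such overlaps may be shared.

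Because chemokine mRNAs are known targets of AU-rich element decay, in which proteins bind the pentamer ATTTA in a 3'UTR, the 3'UTRs of the GENCODE M21 transcripts were searched for it. Ccl3 held 5 copies in 409 bases, and 1.09% of 1830 mouse 3'UTRs of like length (within 20%) held as many or more. Ccl4 held 2 copies in 302 bases, a count reached by 12.9% of 3'UTRs of like length, and Ccl6 held 4 in 943 bases, reached by 14.1%. Ccl9 held 5 in 2465 bases and Ccl22 held 2 in 1813 bases, counts reached by 41.8% and 70.9%. No copy was found in the short 3'UTRs of Ccl5 (199 bases) and Ccl17 (183 bases). The densest stretch of each gene is shown with the pentamers in capitals, to let the tandem copies of Ccl3 be compared with the spaced or single copies of the others.
Ccl3, 3'UTR bases 156 to 168: tttATTTAATTTA
Ccl4, 3'UTR bases 114 to 121: ttaATTTA
Ccl6, 3'UTR bases 78 to 94: gatATTTAaagcATTTA
Ccl9, 3'UTR bases 2114 to 2139: tccATTTAtacagtggatctcATTTA
Ccl22, 3'UTR bases 780 to 787: taaATTTA
The motif TGTA, the DNA form of the UGUA that the Nudt21 protein binds in pre-mRNA, occurred 15 times in the 3'UTR of Ccl9, 4 times in those of Ccl3 and Ccl6, 2 times in that of Ccl22, 1 time in those of Ccl4 and Ccl5 and 0 times in that of Ccl17. It is common, and 100% of 3'UTRs of the length of Ccl9 and 52.5% of those of the length of Ccl17 held it. These are matches of letters, and no binding or 3'UTR length was measured here.

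Promoters of 5 of the 7 members (all but Ccl4 and Ccl5) were given by RefSeq on GRCm38.p6, from 250 bases before to 50 bases after the start. They were searched on both strands for TATAAA and for GGG and CC parted by 5 bases of any kind (similar to sites of NF-κB and called κB-like here). The third motif was 2 copies of GAAA parted by 2 bases of any kind (similar to the ISRE of interferon regulatory factors). The last was TGANTCA with any base at N (similar to sites of AP-1 and called an AP-1 match here). Of 27025 mouse promoters, 14.2%, 50.4%, 3.49% and 7.93% held these 4 motifs, in this order. The matches in members that are described with the stimulation below are shown with the motif in capitals.
Ccl9, AP-1 match, chr11:83578675-83578697, minus strand: actctctcTGAATCAatttgaac
Ccl9, κB-like match on the opposite strand, chr11:83578654-83578679, minus strand: tgaactttGGAAAGCCCCaagtcacc
Ccl22, κB-like match on the opposite strand, chr8:94745514-94745539, plus strand: gggagagtGGCAGTCCCCtctgagta
Ccl22, κB-like match on the opposite strand, chr8:94745545-94745570, plus strand: ccgcctttGGATCCTCCCgctggggg
Ccl9 also held TATAAA, and no match to any of the 4 motifs was found in the windows of Ccl3, Ccl6 and Ccl17. Ccl6 and Ccl9, neighbours whose responses are compared below, share a stretch near their annotated starts (from base -25 in Ccl6 and base 10 in Ccl9) in which 27 of 30 bases are identical, shown with the bases that differ in capitals.
Ccl6, chr11:83593083-83593112, minus strand: tgttccctctTttagaactagcCtgttgTg
Ccl9, chr11:83578598-83578627, minus strand: tgttccctctCttagaactagcAtgttgGg

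At rest, Ccl6 and Ccl9 had the highest levels of the 7 genes and the Ccr4 ligands the lowest. In both genotypes the coverage per base ran Ccl6, Ccl9, Ccl3, Ccl4, Ccl5, Ccl22 and Ccl17 from high to low, and the samples of neighbours in this order did not overlap. Ccl6 ranked 459 among all genes in WT and 294 in cKO. After IFNγ/LPS the order was recast. Ccl3, Ccl5 and Ccl4 stood at ranks 1, 5 and 7 among all genes in WT, with samples that overlapped between Ccl3 and Ccl5 and between Ccl5 and Ccl4. In cKO the order was Ccl5, Ccl3 and Ccl4, at ranks 6, 8 and 15, with no overlap between their samples. Ccl9, Ccl6, Ccl22 and Ccl17 followed in that order in both genotypes, and in cKO the samples of Ccl6 and Ccl22 overlapped. Together the 7 genes took 0.0761% to 0.0968% of the summed coverage at 0 h. At 4 h they took 5.22% and 3.76% (WT) against 2.97% and 3.18% (cKO), so that the samples of the genotypes did not overlap.

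**Figure D1:**
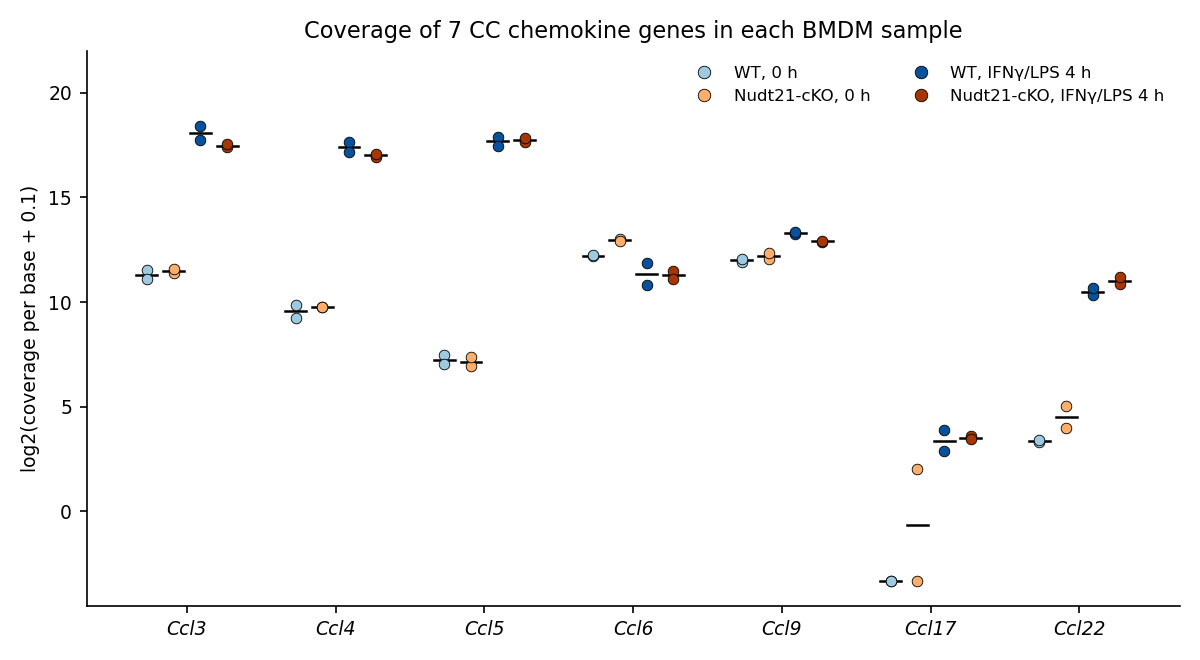
Level of each of the 7 chemokine genes as log2(coverage per base + 0.1) in each of the 8 samples, with a line at the mean of each group of 2. Ccl3, Ccl4, Ccl5 and Ccl22 are higher in all 4 samples at 4 h than in all 4 samples at 0 h, Ccl6 is lower at 4 h on this deposited scale, and Ccl17 is listed at 0 in 3 of the 4 samples at 0 h.

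The response to IFNγ/LPS was compared within each genotype with limma on log2(coverage + 0.1). Calls needed a fold change of more than 1.5 together with p below 0.05 before adjustment. This call rule follows the study. In WT, 5 members that had coverage at 0 h rose and 0 fell. Ccl17 was called higher too, making 6 calls, but it is listed at 0 in both WT samples at 0 h, passed the filter through its values at 4 h and had to differ. Of the 16002 genes tested, 11.9% were called higher and 55.1% lower, and the members had a median log2 fold change of 6.77 against -1.27 for all genes. In cKO, 5 members rose and 1 fell, where 13.7% of 16223 genes were called higher and 53.2% lower. The medians were 5.99 over the members and -1.05 over all genes. Both medians over the members are the value of Ccl3. The fall of the median gene depends on the scaling. After centring every sample on its median log2 coverage, 5361 genes were called higher and 3581 lower in WT, against 1907 and 8815 on the deposited scale. In cKO these counts were 5305 and 3758 against 2223 and 8627.

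Ccl5, Ccl4 and Ccl3 rose most in level. Ccl5, which attracts T cells and monocytes, had coverages of 177 and 131 (WT) against 122 and 168 (cKO) at 0 h. At 4 h they were 244735 and 179503 (WT) against 201853 and 231389 (cKO). The genotypes overlapped at both times while the times were far apart. The log2 fold change was 10.43 (SE 0.28) in WT and 10.56 (SE 0.22) in cKO, with adjusted p = 0.00178 and 0.00107 from limma over all genes tested. On the deposited scale this was a 1377-fold rise in WT and a 1511-fold rise in cKO. It was 11.88 in WT and 11.77 in cKO on the log2 scale with samples centred on their medians, and with quantile normalization it was 11.33 and 11.41.

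Ccl4, which attracts monocytes and T cells, went from 942 and 612 (WT) against 877 and 872 (cKO) at 0 h to 206074 and 147793 (WT) against 126574 and 137550 (cKO) at 4 h. Its log2 fold change was 7.84 (SE 0.34) in WT and 7.24 (SE 0.09) in cKO, or 230-fold and 151-fold (adjusted p = 0.00253 and 9.16e-04 from limma). Ccl3, a ligand of Ccr1, went from 2956 and 2164 (WT) against 2689 and 3039 (cKO) to 348701 and 218921 (WT) against 174333 and 189712 (cKO). The first WT sample at 4 h held the highest value of both genes, and both cKO samples lay below both WT samples. Its log2 fold change was 6.77 (SE 0.34) in WT and 5.99 (SE 0.12) in cKO, or 109-fold and 63.6-fold (adjusted p = 0.00293 and 0.00107 from limma). After centring on the medians, the log2 values were 9.30 in WT and 8.44 in cKO for Ccl4, and 8.22 and 7.20 for Ccl3.

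Ccl22, a ligand of Ccr4, had coverages of 9.70 and 10.4 (WT) against 15.7 and 33.2 (cKO) at 0 h, and of 1272 and 1634 (WT) against 1856 and 2328 (cKO) at 4 h. At both times its cKO samples lay above its WT samples. The rise was 142-fold in WT (log2 fold change 7.15, SE 0.19, adjusted p = 0.00178 from limma) and 90.7-fold in cKO (6.50, SE 0.47, adjusted p = 0.00316 from limma). Centred on the medians it was 8.604 in WT and 7.71 in cKO on the log2 scale, and with quantile normalization 7.96 and 7.11. Ccl17, the other ligand of Ccr4, is listed at 0 in both WT samples and 1 cKO sample at 0 h and at 4.01 in the other. At 4 h it reached 7.22 and 14.5 (WT) against 11.9 and 11.004 (cKO), among which the genotypes overlapped. It was called higher in WT and not called in cKO. No fold is given against samples listed at 0. At 4 h the coverage of Ccl22 was 113 to 212 times that of Ccl17 in the same sample. Dendritic cells also make these chemokines. The summed coverage of the 8 dendritic cell markers was 55.3 to 115 at 0 h. At 4 h it was 1381 to 2169 in WT and 1251 to 1283.5 in cKO, lower in the genotype that had the higher Ccl22. Clec9a alone held 1005 to 1885 of these sums at 4 h. Of the 8, 4 were called higher and 1 lower in WT, 4 higher and 2 lower in cKO, and Cd209a was listed at 0 in all 4 samples at 4 h. Their part in the rise was not tested.

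Ccl9, a Ccr1 ligand, rose less. It had coverages of 3907 and 4272 (WT) against 4209.6 and 5249 (cKO) at 0 h, and of 9699 and 10506 (WT) against 7582 and 7733 (cKO) at 4 h. The rise was 2.47-fold in WT (log2 fold change 1.30, SE 0.14, adjusted p = 0.00715 from limma) and 1.63-fold in cKO (0.70, SE 0.15, adjusted p = 0.0299 from limma). The call in cKO was lost without cKO replicate 3 of 0 h (0.54, a fold under 1.5), without cKO replicate 3 of 4 h (0.72, adjusted p = 0.127 from limma) and without cKO replicate 4 of 4 h (0.69, adjusted p = 0.135 from limma), and it was lost with quantile normalization (0.34, adjusted p = 0.0963 from limma). The rise was larger with samples centred on their medians, at 2.76 in WT and 1.91 in cKO on the log2 scale.

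Ccl6, also a Ccr1 ligand, was the member that did not rise. Its coverage was 4671 and 4855 (WT) against 8205 and 7630.2 (cKO) at 0 h, and 1787 and 3667 (WT) against 2899 and 2225 (cKO) at 4 h. All samples at 4 h were below all samples at 0 h. In cKO it fell 3.12-fold (log2 fold change -1.64, SE 0.18, adjusted p = 0.00668 from limma). In WT the log2 fold change was -0.90 (95% interval -2.24 to 0.45) and was not called, and the WT samples at 4 h were far apart. Without WT replicate 2 of 4 h it was called lower (-1.41, adjusted p = 0.0246 from limma), and without WT replicate 1 of 4 h it was -0.38 and not called. With samples centred on their median, the direction in WT turned to 0.56 and the fall in cKO was -0.44 and no longer called.

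Ratios within a sample do not change when a sample is multiplied by a single factor, though quantile normalization can change them. The coverage of Ccl9 was 0.837 and 0.880 (WT) against 0.513 and 0.688 (cKO) times that of Ccl6 at 0 h, and 5.43 and 2.86 (WT) against 2.62 and 3.48 (cKO) times at 4 h. Ccl6 was thus the higher of these neighbours in all 4 samples at 0 h and Ccl9 in all 4 at 4 h. The mean log2 ratio went from -0.49 ± 0.35 (SD, n = 4) to 1.79 ± 0.47 (SD, n = 4; exact two-sided permutation test, p = 0.0286, the smallest it can give). The test took the 4 samples of each time as independent and set their genotype and replicate number aside. Ccl4 had 0.283 to 0.326 times the coverage of Ccl3 at 0 h and 0.591 to 0.726 times at 4 h. The mean log2 ratio went from -1.72 ± 0.10 (SD, n = 4) to -0.56 ± 0.14 (SD, n = 4; exact two-sided permutation test, p = 0.0286). Of these 2 ratios tested, both had an adjusted p = 0.0286 by the exact permutation test, and reads shared by the overlapping models of Ccl3 and Ccl4 would enter the latter. The ratio of Ccl5 to Ccl3, chosen after the values were seen and given as a description, was 0.0599 and 0.0603 (WT) against 0.0452 and 0.0552 (cKO) at 0 h. At 4 h it was 0.702 and 0.820 (WT) against 1.16 and 1.22 (cKO), so that Ccl3 was the higher gene in both WT samples and Ccl5 in both cKO samples.

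**Figure D2:**
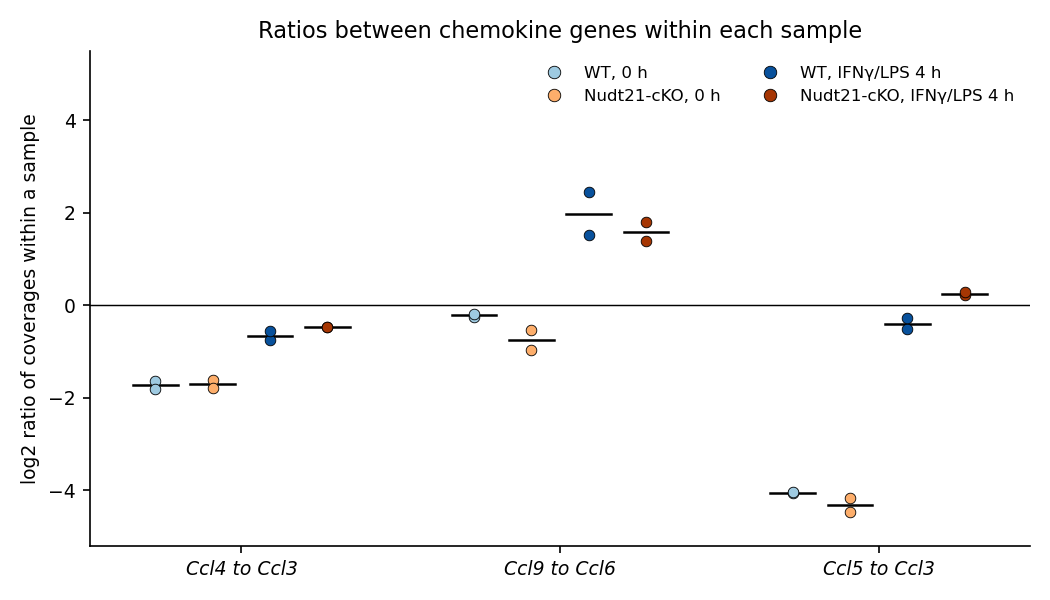
Log2 ratio of the coverages of 2 chemokine genes within each of the 8 samples, with a line at the mean of each group of 2, where 0 marks equal coverage. The ratio of Ccl9 to Ccl6 is below 0 in all samples at 0 h and above 0 in all at 4 h, and the ratio of Ccl5 to Ccl3 at 4 h is below 0 in WT and above 0 in cKO.

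Whether loss of Nudt21 changes these genes was asked by comparing cKO with WT at each time. At 0 h, 1 member was called higher and 0 lower in cKO, where 8.99% of 16251 genes were called higher and 5.61% lower. The members had a median log2 fold change of 0.20, and all genes one of 0.10. Centred on the sample medians, 1178 genes were called higher and 1135 lower, against 1461 and 912 on the deposited scale.

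The member called at 0 h was Ccl6. The cKO samples, at 8205 and 7630.2, were both above the WT samples, at 4671 and 4855. This was 1.66-fold (log2 fold change 0.73, SE 0.11, 95% interval 0.39 to 1.07, adjusted p = 0.114 from limma). The call was kept without any 1 of the 4 samples, with log2 fold changes of 0.68 to 0.78. It was lost when all 8 samples shared 1 estimate of the spread (adjusted p = 0.311 from limma), to which the WT samples of Ccl6 at 4 h contribute. Neutrophils also express Ccl6. The summed coverage of the 8 neutrophil markers at 0 h was 23949.5 to 26512 in WT and 27802 to 36847 in cKO on the deposited scale. Within cKO the order was opposite, since replicate 3 had the higher Ccl6 and the lower marker sum. Of the 8 markers 0 were called, Ly6g was listed at 0 in both cKO samples, and their part in the difference was not tested.

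At 0 h the log2 fold change of Ccl22 was 1.18 (95% interval -0.22 to 2.57, adjusted p = 0.277 from limma), and it was not called. Its cKO samples were both above its WT samples, and the cKO samples were far apart. It was called without cKO replicate 3 (1.72, adjusted p = 0.214 from limma), without cKO replicate 4 (0.64, adjusted p = 0.373 from limma), with a variance that follows the level (adjusted p = 0.141 from limma) and with all 8 samples in the fit (adjusted p = 0.160 from limma). The summed coverage of the 8 dendritic cell markers was 55.3 and 67.6 in WT against 65.9 and 115 in cKO at 0 h, with 1 of the 7 tested called higher and 0 lower. The cKO replicate 4, which had the higher Ccl22, also had Ccr7 at 23.8, against 2.47 to 4.48 in the other 3 samples, and was the sample with coverage of Ccl17. Clec9a, Cd209a, Itgae and Kit were also highest in it. Zbtb46 was lowest in it, at 2.48 against 2.85 to 4.85, Flt3 was 2.71 against 1.26 to 3.54, and Xcr1 was near 0 in every sample at 0 h. The part of these markers in the difference was not tested.

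Ccl3, Ccl4, Ccl5 and Ccl9 were not called at 0 h. Their log2 fold changes were 0.18 (95% interval -0.50 to 0.85), 0.20 (-0.63 to 1.04), -0.09 (-0.95 to 0.77) and 0.20 (-0.33 to 0.73). The samples of the genotypes overlapped for each of the 4 genes. The intervals of Ccl4 and Ccl5 hold a 1.5-fold change in either direction, and those of Ccl3 and Ccl9 hold a 1.5-fold rise, so that such changes could not be told from 0.

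At 4 h no member was called in either direction. Over all 14950 genes tested, 20.8% were called higher in cKO and 4.17% lower, and the members had a median log2 fold change of -0.01 against 0.31 for all genes. Relative to this shift of the median gene, Ccl3 stood at -0.91, Ccl9 at -0.71, Ccl4 at -0.71, Ccl6 at -0.32, Ccl5 at -0.26, Ccl17 at -0.15 and Ccl22 at 0.22. On sample medians, 1552 genes were called higher and 1480 lower, against 3112 and 624 on the deposited scale. At an unadjusted p under 0.05, limma gave Ccl9 alone among the members.

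Ccl9 was 9699 and 10506 (WT) against 7582 and 7733 (cKO) at 4 h. Its log2 fold change was -0.40 (95% interval -0.73 to -0.06, adjusted p = 0.115 from limma), a fold below the threshold of 1.5. It was called lower when samples were centred on their medians (-0.74), with quantile normalization (-0.60) and when samples were set to equal summed coverage (-0.61), with adjusted p of 0.0863, 0.0878 and 0.124 from limma. Over all 8 alternatives other than leaving out a sample, its adjusted p ran from 0.0120 to 0.124.

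Ccl3 was 348701 and 218921 (WT) against 174333 and 189712 (cKO) at 4 h, with a log2 fold change of -0.60 (95% interval -1.52 to 0.31, adjusted p = 0.259 from limma). It was called lower with quantile normalization (-0.70), with a variance that follows the level (adjusted p = 0.0843 from limma) and without WT replicate 2 (-0.94, adjusted p = 0.0982 from limma). Without WT replicate 1 it was -0.27 (adjusted p = 0.272 from limma). Ccl4 had a log2 fold change of -0.40 (95% interval -1.10 to 0.29, adjusted p = 0.303 from limma) and was called lower without WT replicate 2 (-0.64, adjusted p = 0.113 from limma), whereas without WT replicate 1 it was -0.16 (adjusted p = 0.419 from limma). For both genes the cKO samples were below the WT samples while the interval of the difference held 0.

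Ccl22 was 1272 and 1634 (WT) against 1856 and 2328 (cKO) at 4 h, with a log2 fold change of 0.53 (95% interval -0.16 to 1.21, adjusted p = 0.211 from limma). Ccl5 (0.04, 95% interval -0.64 to 0.73), Ccl6 (-0.01, -1.45 to 1.42) and Ccl17 (0.16, -1.15 to 1.46) had samples that overlapped between genotypes. The directions of Ccl5 and Ccl17 turned under each of the 3 scalings. Without WT replicate 2, Ccl17 was called higher (0.66, adjusted p = 0.110 from limma).

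**Figure D3:**
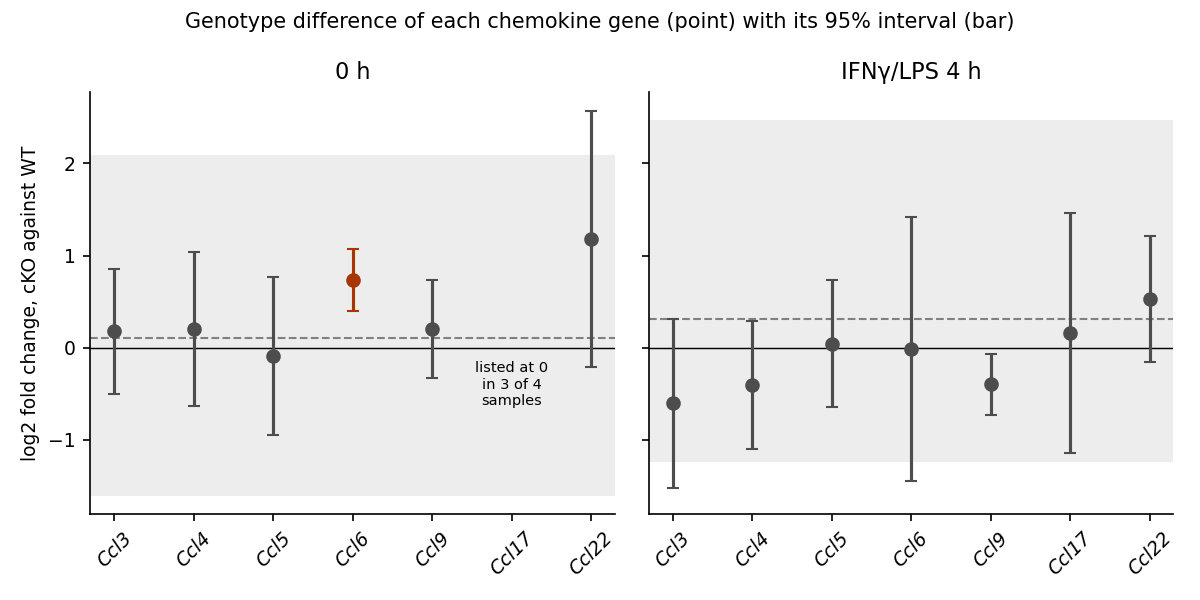
Log2 fold change of cKO against WT for each chemokine gene at 0 h and at 4 h, with its 95% interval from limma, the called gene in red, the median of all genes as a dashed line and the range from the 5th to the 95th percentile of all genes as a grey band. Ccl6 at 0 h, at 0.73, is the only gene in red, and at 4 h the interval of Ccl9 ends below 0 at -0.06.

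The genotype difference was then compared between the times as an interaction over all 8 samples. The comparison at 4 h minus that at 0 h was called lower for 1 member and higher for 0, where 13.5% of 16284 genes were called higher and 4.05% lower. The medians were -0.65 over the members and 0.20 over all genes, and with samples centred on their medians 1216 genes were called higher and 1441 lower, against 2192 and 659. The member was Ccl9, with a difference of -0.60 (SE 0.20, 95% interval -1.11 to -0.09, adjusted p = 0.173 from limma). Its call was lost without WT replicate 1 of 0 h, cKO replicate 4 of 0 h, WT replicate 2 of 4 h, cKO replicate 3 of 4 h or cKO replicate 4 of 4 h, with values of -0.44 to -0.62.

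Ccl3 had a difference of -0.78 (95% interval -1.77 to 0.21, adjusted p = 0.320 from limma), Ccl6 of -0.74 (-2.04 to 0.55), Ccl22 of -0.65 (-2.03 to 0.73), Ccl4 of -0.61 (-1.56 to 0.34) and Ccl5 of 0.13 (-0.83 to 1.09). None of these 5 was called. Ccl3 was called lower with quantile normalization (-1.10, adjusted p = 0.149 from limma) and with a variance that follows the level (adjusted p = 0.188 from limma), and with the replicate number as a block Ccl3 and Ccl4 were called lower (adjusted p = 0.2001 and 0.222 from limma), though the numbers were not taken as pairs. Each of the first 4 was called lower in at least 1 fit that left out a sample. Ccl3 was called without WT replicate 2 of 4 h (-1.12), Ccl4 without WT replicate 1 of 0 h (-0.92), Ccl6 without WT replicate 1 of 4 h (-1.26) and Ccl22 without cKO replicate 3 of 0 h (-1.19). The smallest differences among these fits were -0.44 for Ccl3 (without WT replicate 1 of 4 h), -0.30 for Ccl4 (without WT replicate 2 of 0 h), -0.23 for Ccl6 (without WT replicate 2 of 4 h) and -0.11 for Ccl22 (without cKO replicate 4 of 0 h).

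Among the receptors of these chemokines, Ccr1 was lower in cKO at 4 h. Of the 7 listed, 3 (Ccr1, Ccr3 and the Ccr1 relative Ccr1l1) had enough coverage to be tested, and Ackr1 and Ackr2, decoy receptors that take up CC chemokines, were listed at 0 in all 8 samples. Ccr4 and Ccr8 were not analysed here. At 4 h, 1 of the 3 was called lower and 0 higher, where 4.17% of all genes were called lower and 20.8% higher. The 3 had a median log2 fold change of -1.53 at 4 h, against 0.31 for all genes. At 0 h 0 of the 3 were called, where 8.99% of all genes were called higher and 5.61% lower. Ccr1, the receptor of Ccl3, Ccl5, Ccl6 and Ccl9, was 888 and 1006 (WT) against 291 and 245 (cKO) at 4 h, which is 3.53-fold lower (log2 fold change -1.82, SE 0.16, adjusted p = 0.0475 from limma). At 0 h it was 865 and 936 (WT) against 1087 and 875 (cKO), which overlapped. Its genotype difference changed between the times by -1.94 (adjusted p = 0.0275 from limma), and both calls of Ccr1 held under the 3 scalings. On stimulation Ccr1 fell 3.65-fold in cKO (-1.87 on the log2 scale, adjusted p = 0.00525 from limma), and with samples centred on their medians this was -0.66 and still called. In WT the value was 0.07 and was not called, whereas after the same centring it was called higher (1.52). Ccr3, a receptor known from eosinophils, was 63.8 and 83.7 (WT) against 44.3 and 60.9 (cKO) at 4 h, with a log2 fold change of -0.49 that was not called on the deposited scale and was called lower with samples centred on their medians (-0.83) and with quantile normalization (-0.84).

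**Figure D4:**
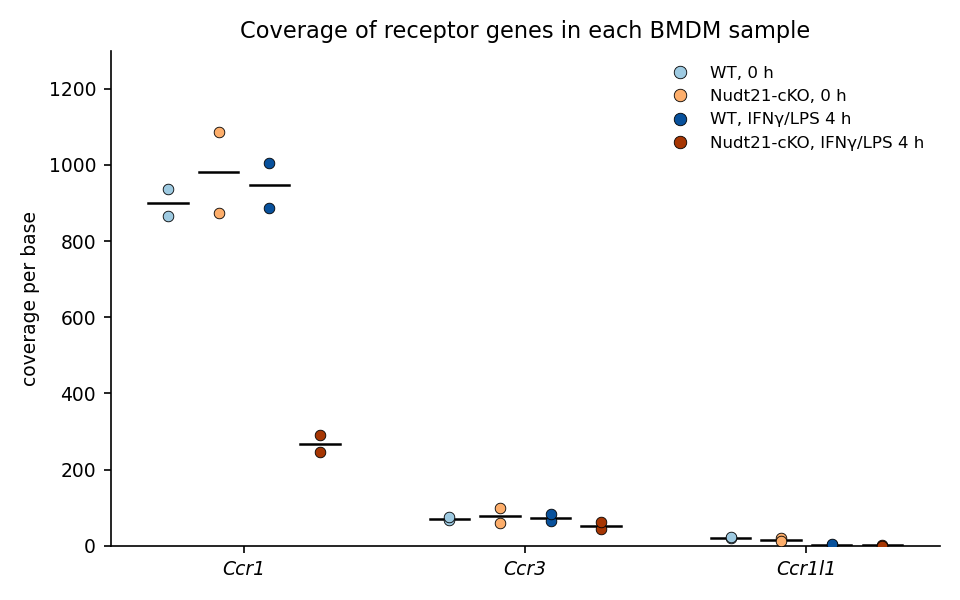
Coverage per base of 3 receptor genes in each of the 8 samples, with a line at the mean of each group of 2. At 4 h Ccr1 lies at 291 and 245 in cKO, below all WT samples of either time.

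Among the 14 other CC chemokine genes listed, 8 were tested at 4 h, of which 3 were called higher (Ccl2, Ccl7 and Ccl24) and 2 lower (Ccl8 and Ccl12) in cKO, against 20.8% and 4.17% of all genes, with a median log2 fold change of 0.03. Ccl7 and Ccl24 were no longer called under any of the 3 scalings, and the other 3 were called under each. Ccl2, the main ligand of Ccr2, was 2992 and 3256 (WT) against 12778 and 13773 (cKO), or 4.25-fold higher (adjusted p = 0.0325 from limma). Ccl8, a ligand of Ccr2 and other receptors, was 817 and 833 (WT) against 221 and 233 (cKO), or 3.64-fold lower (adjusted p = 0.0325 from limma). Ccl12, a Ccr2 ligand, was 3209.7 and 3098 (WT) against 1175 and 997 (cKO), or 2.91-fold lower (adjusted p = 0.0475 from limma), and it is listed at 0 in all 4 samples at 0 h. At 0 h, 2 of the 6 tested were called higher (Ccl2 and Ccl7) and 0 lower, where 8.99% of all genes were called higher and 5.61% lower.

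The factors that act on these genes were described from lists. Of 21 transcription factors known to act on CC chemokine genes, 13 rose and 4 fell on stimulation in WT, where 11.9% of all genes rose and 55.1% fell, and 15 rose and 4 fell in cKO, where 13.7% rose and 53.2% fell. With samples centred on their medians, 17 rose and 1 fell in each genotype. Between genotypes, 0 of the 21 were called at 0 h, 3 were called higher in cKO at 4 h and 0 lower, a share not above the 20.8% of all genes called higher, with a median log2 fold change at 4 h of 0.38 against 0.31 for all genes. Cebpb, a factor of the acute-phase response, was 5849.7 and 4915 (WT) against 11412 and 13751 (cKO) at 4 h, 2.34-fold higher (adjusted p = 0.0632 from limma). Irf7, an interferon regulatory factor, was 9105 and 8745 (WT) against 17146 and 16441 (cKO), 1.88-fold higher (adjusted p = 0.0542 from limma). Junb, an AP-1 subunit, was 1.80-fold higher (adjusted p = 0.0628 from limma). Irf7 was not called with samples centred on their medians, nor Junb with these or with quantile normalization, while Cebpb was called under each scaling. Under each of the 3 scalings 1 factor was called lower, namely Spi1 (PU.1), a factor of myeloid identity, at -0.65 to -0.78 against -0.44 on the deposited scale.

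Of 11 factors that govern the decay of cytokine mRNA, 3 rose (Zfp36, Zc3h12a and Zc3h12c) and 4 fell (Zfp36l1, Zfp36l2, Khsrp and Tial1) on stimulation in each genotype. Among all genes, 11.9% rose and 55.1% fell in WT, and 13.7% rose and 53.2% fell in cKO. With samples centred on their medians, 7 of the 11 factors rose and 2 fell in each genotype. The falls of Khsrp and Tial1 were then not called in either genotype, and the direction turned for Tial1 in WT (0.15) and for Khsrp in cKO (0.26). Zfp36 encodes tristetraprolin, which binds AU-rich elements, and Zc3h12a encodes the endonuclease Regnase-1. Rc3h1, which encodes the RNA-binding protein Roquin-1, was higher in cKO at both times, by 2.68-fold at 0 h (adjusted p = 0.0934 from limma) and 2.22-fold at 4 h (adjusted p = 0.0489 from limma). Its coverage was 338 and 419 (WT) against 970.4 and 1047 (cKO) at 0 h, and 380.4 and 415 (WT) against 876 and 886 (cKO) at 4 h. Zfp36, by contrast, was 597 and 634 (WT) against 603 and 631 (cKO) at 4 h, values that overlap. Elavl1 at 0 h and Khsrp and Zfp36l2 at 4 h were also called higher in cKO. Elavl1 was not called under any of the 3 scalings, and Khsrp and Zfp36l2 were not called with samples centred on their medians or with quantile normalization.

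The genes within 100 kb of the members were counted beside all genes, of which 11.9% rose and 55.1% fell in WT and 13.7% rose and 53.2% fell in cKO. On chromosome 11, 10 of the 11 listed neighbours were tested for stimulation in WT, of which 2 rose and 0 fell, and in cKO 3 rose and 1 fell. The risers were Heatr9 and Rpl9-ps1 in both genotypes and Wfdc21 in cKO. Rpl9-ps1 reached at most 4.33 in WT and is listed at 0 in both cKO samples at 0 h. A gene listed at 0 at 0 h passed the filter through its values at 4 h. With samples centred on their medians 7 of these neighbours rose and 0 fell in each genotype, and with quantile normalization 5 rose in WT and 4 in cKO. Heatr9, next to Ccl5, is listed at 0 in both WT samples at 0 h and had a mean coverage of 107 in WT and 57.7 in cKO at 4 h, where it was called lower in cKO (log2 fold change -0.87, adjusted p = 0.122 from limma). E230016K23Rik, whose model spans Ccl6, had mean coverages of 0.690 to 3.05 in the 4 groups, against 2562 to 7918 for Ccl6. On chromosome 8, Cx3cl1, the gene of fractalkine, lies between Ccl22 and Ccl17. Its mean coverage was 8.40 in WT and 3.43 in cKO at 0 h and 23.4 and 25.6 at 4 h, and it was called higher at 4 h in cKO and not in WT, while the difference between the genotypes was not called. Of the 8 chromosome 8 neighbours tested, 1 rose and 4 fell in WT, and 2 rose and 4 fell in cKO, which is near the shares of all genes. With samples centred on their medians, 3 rose and 2 fell in WT, and 4 rose and 2 fell in cKO.

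**Figure D5:**
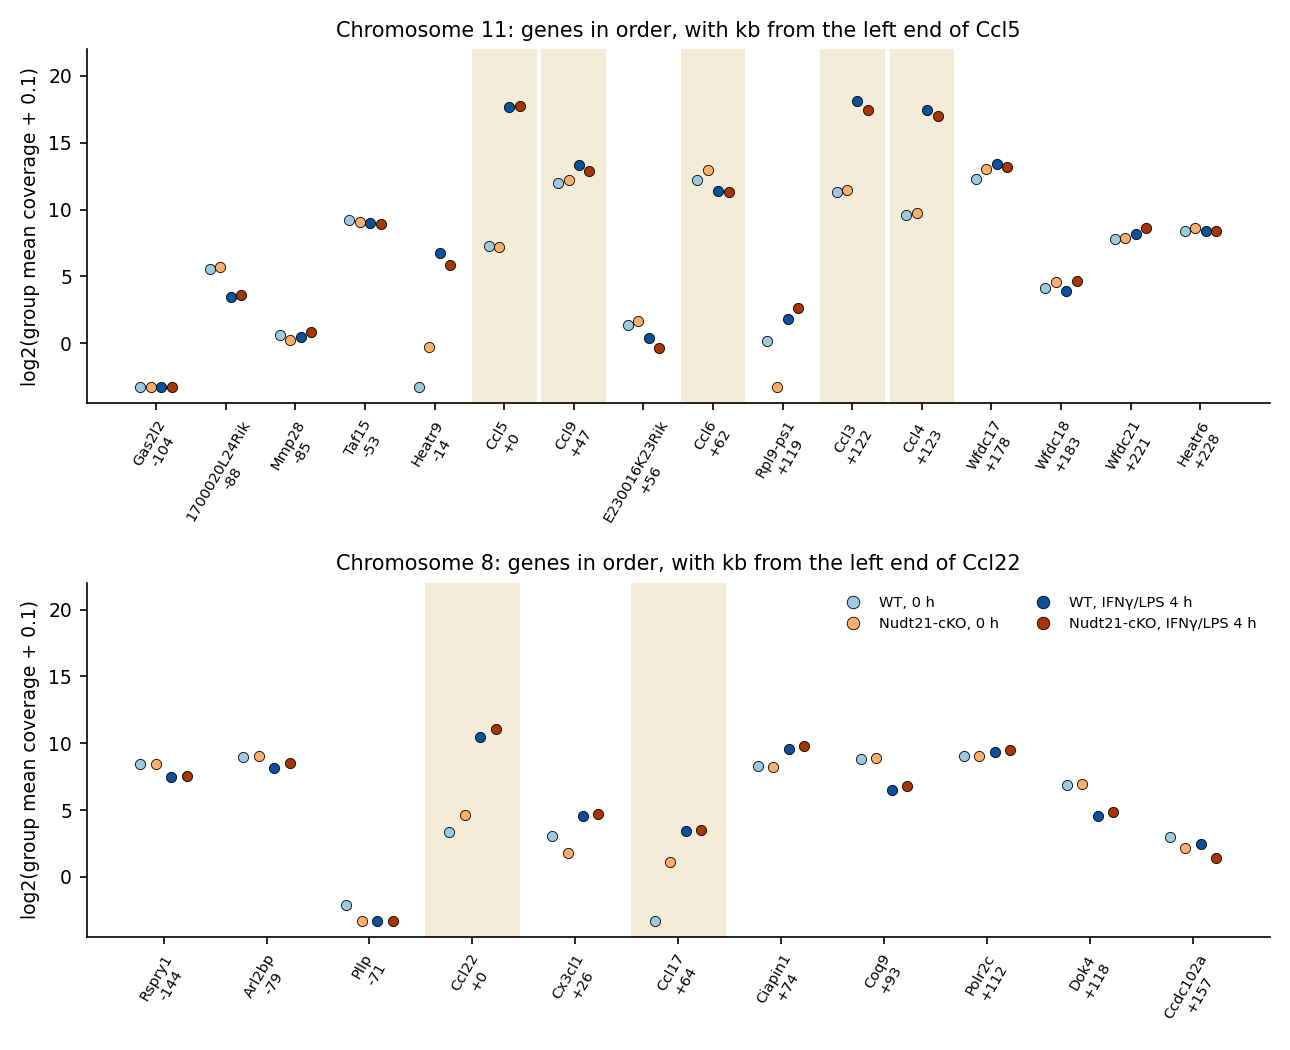
Group mean level, as log2(mean coverage + 0.1), of the genes around the members on chromosome 11 and chromosome 8, in genomic order, each with its distance in kb from the left end of Ccl5 or Ccl22 and with the members shaded. Ccl5, Ccl3 and Ccl4 rise to levels of 132062 or more in both genotypes at 4 h. Of their neighbours, Taf15 and Heatr6 have means that stay between 333 and 585. The mean of Heatr9 goes from 0 to 107 in WT and from 0.729 to 57.7 in cKO, and that of Wfdc17 from 4877 to 11061 in WT and from 8366 to 9305 in cKO.

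The genes of most similar pattern were sought among all genes whose coverage averaged 0.5 or more, by the root mean square difference of log2(coverage + 0.1) over the 8 samples after each gene was centred on its mean. Ccl9 had the closest companions, Psd4 (0.0920), Il10ra (0.104) and Zfp263 (0.107), where Il10ra encodes a chain of the IL-10 receptor. Ccl6 was closest to Exo5 (0.1804), Ccdc62 (0.183) and Rpf2 (0.185). Ccl22 was closest to Trim30c (0.351), Inhba (0.354), which encodes the activin A subunit, and Gprc5a (0.410). Ccl4 was closest to AW112010 (0.243), Hcar2 (0.294) and Gm13584 (0.314), and Ccl5 to Gm14963 (0.255), Csf3 (0.305), the gene of G-CSF, and Acod1 (0.324), the enzyme that makes itaconate. Ccl3 was closest to Inava (0.205), 3300002P13Rik (0.236) and Gstt4 (0.245). All 3 companions of Ccl3, as well as Gm13584, Gm14963 and Csf3, had mean coverages of 0 at 0 h in both genotypes, so that their distances depend on the pseudocount. No gene followed Ccl17 closely, the nearest being Ppef2 (0.826), Ccr7 (0.830) and Gdf11 (0.833). These distances rest on 8 samples in 4 groups and are given with no test.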

How the data were processed

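RNA-seq of 8 BMDM samples was analysed, 2 for each genotype and time. The authors aligned reads to the mouse genome with HISAT2 (2.2.1 per the submitters' processing notes) and quantified RefSeq genes with StringTie (2.1.7). The deposited tables, 1 for each time, hold a coverage signal for each gene and sample. The tables do not name this unit, which was read from the values, and no scaling between samples was applied by the authors as far as the values show. The tables also hold the authors' own fold changes and p-values, which were not used. No sample column was left unused (0 columns).

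Groups were compared by limma (version 3.58.1, run under R 4.3.3), using log2(coverage + 0.1) of genes that averaged 0.5 or more in the samples compared, on the deposited scale and with Benjamini-Hochberg adjustment over all genes tested. The pseudocount understates changes of low genes. A call needed more than a 1.5-fold change together with p below 0.05 before adjustment. The interaction used all 8 samples. Ratios within a sample were compared between times by an exact permutation test over all 8 samples. This test did not use genotype or replicate number. That of Ccl22 to Ccl17 was not tested because Ccl17 is listed at 0 in 3 samples. With 2 samples against 2 such a test cannot give a p below 0.333. The design had foreseen counts or normalized values, and since coverage is neither, no count test was run.

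The members and all lists were chosen with earlier results of these data known. The text names all members, Nudt21, the 3 genes of nearest profile to each member, and up to 4 called genes a list and comparison, by fold. Other listed genes (Ccr3, Zfp36, Irf1, Spi1, Rc3h2, single neighbours) were picked after their values were seen. The fits were tested on simulated data. Some items of the lists are not reported here. Annotation came from GENCODE M21 and RefSeq. Alternatives covered the pseudocount, filter, scaling, variance estimate, samples in the fit, the replicate block and leaving out each sample.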

Additional observations from a re-analysis of the deposited data

Results flagged for a closer look

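For Ccl9 the test of the difference between the times was passed at an unadjusted p under 0.05 only, with a cKO minus WT log2 fold change that was 0.60 lower at 4 h than at 0 h (value -0.60, adjusted p = 0.173 from limma). Both cKO samples lay below both WT samples at 4 h, while the samples overlapped at 0 h. The call was lost in 5 of the 8 fits that left out 1 sample (-0.44 to -0.62), and 4.05% of all genes were called lower.

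The same test called other genes of the lists. The receptor Ccr1 (-1.94) and the chemokines Ccl7 (-2.56) and Ccl2 (-0.75) had a lower genotype difference at 4 h than at 0 h, with adjusted p of 0.0275, 0.181 and 0.226 from limma. Ccl12 was called lower as well (-1.54, adjusted p = 0.0180 from limma), but it is listed at 0 in all samples at 0 h, so that its value is that of the comparison at 4 h. The transcription factors Cebpb (1.65), Irf7 (1.14), Relb (0.87), Junb (0.67) and Irf1 (0.64) and the decay factors Zfp36l2 (1.56) and Zc3h12a (0.64) had a higher one, with adjusted p of 0.0547, 0.0509, 0.0509, 0.161, 0.134, 0.0861 and 0.102 from limma, where 13.5% of all genes were called higher. The calls of Junb, Irf1 and Zc3h12a were lost under each of the 3 scalings of the samples. Called lower under a scaling were Spi1 (-0.66) and Rc3h2 (-0.59) with samples centred on their medians, and Rc3h1 (-0.85) and Rc3h2 (-0.61) with quantile normalization. Among the genomic neighbours, the pseudogene Rpl9-ps1 was called higher (adjusted p = 0.0120 from limma), but it is listed at 0 in both cKO samples at 0 h and reached at most 6.84 in any sample, and no fold is given.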

How the results depend on the processing

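Of the values of single members under alternatives other than leaving out a sample, 226 of 248 kept their direction and side of the threshold, 8 changed direction, 11 were newly called and 3 lost their call. The changes of direction were Ccl5 at 4 h (-0.29 median-centred, -0.080 with quantile normalization and -0.17 at equal summed coverage, against 0.04), Ccl17 at 4 h (-0.18, -0.19 and -0.051, against 0.16), Ccl6 on stimulation in WT (0.56 median-centred, against -0.90) and the interaction of Ccl5 (-0.13 median-centred, against 0.13). None of these was called before or after. Leaving out 1 sample turned Ccl3 (-0.048 to 0.40), Ccl4 (-0.11 to 0.51) and Ccl5 (-0.32 to 0.14) at 0 h, Ccl5 (-0.18 to 0.27), Ccl6 (-0.53 to 0.51) and Ccl17 (-0.34 to 0.66) at 4 h, and the interaction of Ccl5 (-0.10 to 0.37). The cause was not tested.

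Members called higher at 0 h were 2 with an intensity trend, and members called lower at 4 h were 1 median-centred, 2 with quantile normalization, 1 at equal summed coverage and 1 with an intensity trend, against 0. Members called lower on stimulation in cKO were 0 median-centred, against 1. Members called lower in the interaction were 2 with quantile normalization and 2 with an intensity trend, against 1. With the replicate block, 3 members were called lower in the interaction (Ccl3, Ccl4 and Ccl9), against 1, and no other call of a member changed. The replicate numbers recur at both times, and the labels do not say whether a number marks the same mice. The difference between the replicates at 0 h had a correlation with that at 4 h of 0.0204 in WT and 0.0237 in cKO, over 16284 genes. With 2 pairs each this cannot show that the pools were separate. The main fits took the samples as independent, and the block was an alternative. Leaving out 1 sample gave 1 to 3 members called higher at 0 h, 0 to 1 higher and 0 to 2 lower at 4 h, 0 to 1 lower on stimulation in WT, 4 to 6 higher on stimulation in cKO and 0 to 3 lower in the interaction. Over all genes, 2243 were called at 4 h without cKO replicate 4. The ratio of Ccl4 to Ccl3 differed by 1.13 to 1.22 and that of Ccl9 to Ccl6 by 2.05 to 2.40 between the times without 1 sample, with p = 0.0571, the smallest an exact permutation test of 3 against 4 can give. A sample left alone in its group was assumed to vary like the others. Since coverage is not a count of reads, the planned count models were left out. Groups of 2 leave the spread poorly known, and only a minimum yield of reads is known.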
